A study of Mus musculus with 3 samples.

Results

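The genes described here make, bind, sense and clear retinoic acid in the gastrulating mouse embryo. They were chosen by symbol, as a list of 9 genes, and all 9 were found among the 17633 genes with reads. The list holds *Stra6*, *Rdh10*, *Aldh1a2*, *Cyp26a1*, *Crabp1*, *Crabp2*, *Rara*, *Rarb* and *Rarg*. Each of the 9 had reads in the endoderm, the mesoderm and the epiblast.

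RNA came from ICR embryos at E7.5, and each of the 3 tissues (Endoderm, Mesoderm, Epiblast) is represented by 1 library. The layers were parted with enzyme and needles from the embryonic region of pooled embryos, and the epiblast sample takes in neuroectoderm and primitive streak. No difference below therefore has a replicate check. The reads on genes were 41.7 M (endoderm), 40.8 M (mesoderm) and 42.7 M (epiblast), so the depth was alike.

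Retinoic acid is a small lipid made from vitamin A. Retinol reaches cells on carrier proteins, is oxidised to retinaldehyde and then to retinoic acid, and the acid enters the nucleus, where it binds receptors that sit on DNA as dimers with the retinoid X receptors. Enzymes of the CYP26 family break it down, so that source and sink tissues shape its distribution. In the mouse embryo the pathway is known for patterning the hindbrain, the somites and the heart, and an embryo lacking *Aldh1a2* dies at midgestation.

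Some genes of the pathway carry a receptor binding element next to their own start site. The classical element is a direct repeat of the hexamer AGGTCA or AGTTCA or GGGTCA or GGTTCA with 5 bases between the copies, and spacings of 1 and 2 bases are also known. RefSeq start sites on GRCm38.p6 were found for 7 of the 9 genes, all but *Rdh10* and *Crabp2*, and the window from 250 bases before to 50 bases after each of their 14 start sites was searched on both strands. The repeat with 5 bases was found for *Rarb* and *Cyp26a1* and for no other of the 7 genes. No window of the 7 genes held a repeat with 1 or 2 bases. Among all 32851 windows of the mouse genes, 32 held the repeat with 5 bases (0.0974%), 73 the repeat with 1 base (0.222%) and 88 the repeat with 2 bases (0.268%). The 2 promoters are shown because they belong to the receptor and the degrading enzyme among the members whose own start carries the element. Each run is the 150 bases before the start site on the strand of the gene, 5′ to 3′, with the repeat in capitals.
*Rarb* (chr14:16575477-16575626, minus strand): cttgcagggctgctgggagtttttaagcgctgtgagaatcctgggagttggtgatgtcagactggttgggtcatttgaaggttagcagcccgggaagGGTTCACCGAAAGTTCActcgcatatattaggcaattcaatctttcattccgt
*Cyp26a1* (chr19:37697658-37697807, plus strand): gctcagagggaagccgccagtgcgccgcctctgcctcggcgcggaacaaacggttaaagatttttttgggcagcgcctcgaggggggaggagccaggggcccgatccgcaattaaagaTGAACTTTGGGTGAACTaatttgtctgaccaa
In *Rarb* the repeat lies 37 to 53 bases before the start site and reads in the direction of the gene. In *Cyp26a1* it lies 16 to 32 bases before the start site and reads on the opposite strand, as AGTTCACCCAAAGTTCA. A match of letters is a description and was not tested for binding.

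Levels are given as RPKM, gene reads scaled for gene length and library total, so that genes can be compared with each other. Values given in threes follow the order endoderm, mesoderm, epiblast. A difference between 2 libraries met the criteria of the study when RPKM was above 5 in at least 1 of them, the fold was above 2 and the FDR was below 0.001. The FDR rests on Audic and Claverie's exact test of read counts, which compares 2 libraries and not the germ layers as conditions. Intervals are 95% exact intervals and cover counting error only. In bulk tissue, fewer cells that express a gene and less RNA per cell cannot be told apart.

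Mesoderm had the highest level of *Aldh1a2*, the retinoic acid synthesising enzyme, of the retinol uptake receptor and of 1 of the 2 cellular binding proteins. Endoderm had the highest level of the degrading enzyme, but also of *Rdh10*, which carries out the preceding step of synthesis. The other binding protein and *Rarg* were highest in epiblast. The leads of *Cyp26a1* and *Rdh10* in endoderm and that of *Rarg* in epiblast did not meet the criteria against mesoderm, the next layer. The lead of *Crabp2* in epiblast met them by a narrow margin. Of the 27 differences (9 genes in 3 pairs of layers), 17 met the criteria. Between endoderm and mesoderm 5 of the 9 genes met them, all higher in mesoderm. Over all 17194 genes with a read in either library, 11.9% met them, 4.41% being higher in mesoderm and 7.44% higher in endoderm, and among the 8867 genes above the RPKM minimum 23.0% did. Between endoderm and epiblast 6 of the 9 met them, 4 higher in epiblast and 2 higher in endoderm. Here 12.6% of all 17267 genes did, with 4.58% higher in epiblast and 8.02% higher in endoderm, or 24.6% of those above the RPKM minimum. Between mesoderm and epiblast 6 of the 9 met them, 5 higher in mesoderm and 1 higher in epiblast. In that pair 5.04% of all 17100 genes did, with 2.58% higher in mesoderm and 2.45% higher in epiblast, or 10.3% of those above the RPKM minimum. The median log2 difference of the 9 genes was 1.74 for mesoderm minus endoderm, against 0.09 over all genes tested. It was -0.24 for epiblast minus endoderm, against 0.09, and -1.33 for epiblast minus mesoderm, against 0.000536. The genes were listed with results of these data known, so these counts describe the list and were not tested.

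**Figure D1:**
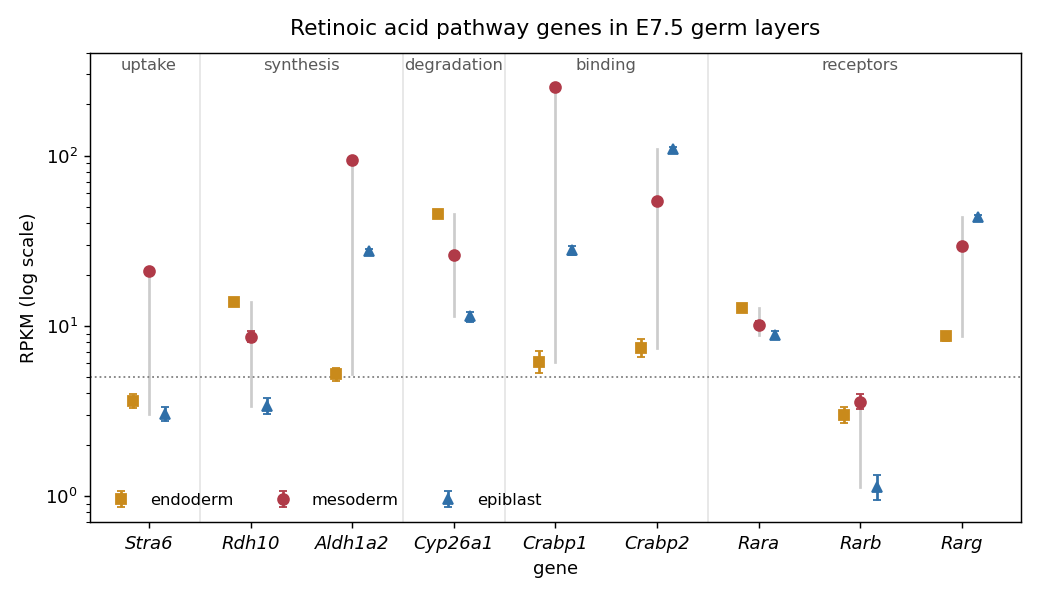
RPKM on a log scale of the 9 genes, grouped by role, in endoderm (squares), mesoderm (circles) and epiblast (triangles), 1 library each; error bars are 95% Poisson intervals of the read count and the dotted line is RPKM 5. *Aldh1a2*, *Stra6* and *Crabp1* stand highest in mesoderm, *Cyp26a1* and *Rdh10* in endoderm, and *Crabp2* and *Rarg* in epiblast.

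*Aldh1a2* encodes the retinaldehyde dehydrogenase that makes most of the retinoic acid of the early embryo. It had 490 (endoderm), 8668 (mesoderm) and 2643 (epiblast) reads, and an RPKM of 5.20, 93.7 and 27.3. Mesoderm was high, epiblast lay in between and endoderm was low. In mesoderm it ranked 786 among 16201 genes with reads, and its reads covered 99.4% of the gene length. The level in mesoderm was 18.0-fold (16.5 to 19.8) that in endoderm and 3.43-fold (3.28 to 3.58) that in epiblast, and epiblast was 5.26-fold (4.78 to 5.81) above endoderm. All 3 differences met the criteria. On GRCm38 the gene lies on chromosome 9 from 71215789 to 71296243.

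Its paralogs were scarcely read. *Aldh1a1* had 77 (endoderm), 0 (mesoderm) and 2 (epiblast) reads, and *Aldh1a3* had 25, 14 and 4. *Aldh1a7* had 12, 0 and 2, and *Aldh8a1* 6, 0 and 0. None of these 4 genes reached RPKM 1 in any layer, and each of the 4 had its highest RPKM in endoderm, the layer in which *Aldh1a2* was lowest. A count of 0 allows up to 3 reads at this depth.

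*Rdh10* encodes the dehydrogenase that carries out the preceding step, from retinol to retinaldehyde. It had 1324 (endoderm), 810 (mesoderm) and 332 (epiblast) reads, with an RPKM of 13.8, 8.64 and 3.39. It thus followed another order than *Aldh1a2*, with endoderm highest and epiblast lowest. Endoderm was 4.09-fold (3.62 to 4.63) and mesoderm 2.55-fold (2.24 to 2.91) above epiblast, and both met the criteria. The 1.60-fold (1.47 to 1.75) difference between endoderm and mesoderm did not. Within endoderm the RPKM of *Rdh10* was 2.67 times (2.40 to 2.96) that of *Aldh1a2*. In mesoderm the order was turned round, with *Aldh1a2* at 10.8 times (10.1 to 11.7) *Rdh10*, and in epiblast *Aldh1a2* was at 8.07 times (7.20 to 9.07). Such ratios inside 1 library do not depend on how libraries are scaled. *Rdh10* lies on chromosome 1 from 16105774 to 16133734.

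Of the 15 other retinol and retinal redox enzymes listed, 5 were above RPKM 5 in some layer and 2 met the criteria in any pair. These 2 met them between endoderm and mesoderm, where 11.9% of all genes did, and between endoderm and epiblast, where 12.6% did. *Rdh11*, another retinol dehydrogenase, had an RPKM of 23.1 (endoderm), 7.33 (mesoderm) and 5.52 (epiblast), and was 3.15-fold and 4.19-fold higher in endoderm. *Akr1b3*, an aldo-keto reductase, went the other way, with an RPKM of 12.9, 36.5 and 49.5, and exceeded endoderm 2.82-fold in mesoderm and 3.82-fold in epiblast. *Dhrs3*, which turns retinaldehyde back to retinol, had 194 (endoderm), 106 (mesoderm) and 56 (epiblast) reads, in the same order as *Rdh10*, and stayed under the RPKM minimum. The median log2 difference of the 15 genes was -0.45 for mesoderm minus endoderm and -0.45 for epiblast minus endoderm. Between mesoderm and epiblast 0 of the 15 met the criteria, against 5.04% of all genes, with a median of 0.13 for epiblast minus mesoderm.

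*Stra6* encodes the membrane receptor that takes up retinol from its carrier in plasma. It had 465 (endoderm), 2659 (mesoderm) and 401 (epiblast) reads, with an RPKM of 3.61, 21.0 and 3.03. Mesoderm alone was high. It was 5.83-fold (5.28 to 6.45) above endoderm and 6.93-fold (6.24 to 7.72) above epiblast, and both met the criteria. Endoderm and epiblast differed by 1.19-fold (1.04 to 1.36), with RPKM below 5 in both. Its paralog *Stra6l*, listed under the older symbol *1300002K09Rik*, had 273 (endoderm), 24 (mesoderm) and 38 (epiblast) reads. It was highest in endoderm, unlike *Stra6*, with an RPKM of 1.82, 0.163 and 0.247, under the RPKM minimum. *Stra6* lies on chromosome 9 from 58063788 to 58153996.

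Carriers of retinol outside and inside the cell were read most in endoderm. Between endoderm and mesoderm, 5 of the 12 genes for retinol carriers, uptake and storage met the criteria, all 5 being higher in endoderm. In this pair 7.44% of all genes met them as higher in endoderm and 4.41% as higher in mesoderm. Against epiblast 4 of the 12 were higher in endoderm and 0 lower, where 8.02% of all genes were higher and 4.58% lower. Between mesoderm and epiblast 0 of the 12 met the criteria, against 5.04% of all genes. The median log2 difference was 0.18 for epiblast minus mesoderm. *Rbp4*, the plasma carrier of retinol, had 38236 (endoderm), 75 (mesoderm) and 95 (epiblast) reads. *Ttr*, the transthyretin that binds it in plasma, had 52171, 31 and 8 reads. Endoderm was 500.0-fold (398.8 to 635.8) above mesoderm for *Rbp4* and 1650-fold (1163 to 2429) for *Ttr*. *Scarb1*, a lipoprotein receptor that also takes up carotenoids, had an RPKM of 78.9, 10.7 and 13.6. *Bco1*, the enzyme that cleaves beta-carotene to retinaldehyde and is listed under its older symbol *Bcmo1*, had 1187 (endoderm), 30 (mesoderm) and 4 (epiblast) reads. The median log2 difference of the list was -2.87 for mesoderm minus endoderm and -2.47 for epiblast minus endoderm. *Rbp4* and *Ttr* are also on the list of visceral endoderm markers given below.

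*Cyp26a1* encodes the hydroxylase that inactivates retinoic acid and is known as a direct target of it. It had 3343 (endoderm), 1883 (mesoderm) and 862 (epiblast) reads, with an RPKM of 45.1, 25.9 and 11.3. The level fell off from endoderm to mesoderm to epiblast. Endoderm was 3.98-fold (3.69 to 4.29) above epiblast and mesoderm was 2.28-fold (2.11 to 2.48) above epiblast, and both met the criteria. The 1.74-fold (1.64 to 1.84) difference between endoderm and mesoderm lay under the fold minimum. In endoderm the RPKM of *Cyp26a1* was 8.67 times (7.89 to 9.55) that of *Aldh1a2*. In the other layers the enzyme for synthesis was ahead, with *Aldh1a2* at 3.62 times (3.44 to 3.81) *Cyp26a1* in mesoderm and 2.41 times (2.23 to 2.61) in epiblast. The gene lies on chromosome 19 from 37697798 to 37701536.

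The other hydroxylases of the family were low. *Cyp26c1*, which ends 4.40 kb before *Cyp26a1* on chromosome 19, had 42 (endoderm), 82 (mesoderm) and 33 (epiblast) reads. *Cyp26b1* had 2, 100 and 15 reads. Both were highest in mesoderm, and neither reached RPKM 5 in any layer. The RPKM of *Cyp26a1* was 69.6 times that of *Cyp26c1* in endoderm, 20.1 times in mesoderm and 22.8 times in epiblast.

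*Crabp1* encodes a small cytoplasmic protein that holds retinoic acid. It had 189 (endoderm), 7633 (mesoderm) and 876 (epiblast) reads, with an RPKM of 6.12, 252.2 and 27.7. In mesoderm it ranked 265 among genes with reads, the highest rank of the 9 genes in any library. Mesoderm was 41.2-fold (35.6 to 47.8) above endoderm and 9.11-fold (8.49 to 9.78) above epiblast, and epiblast was 4.52-fold (3.86 to 5.32) above endoderm. All 3 differences met the criteria. Its highest level was 41.2-fold its lowest, and 97.7% of the 9135 genes above RPKM 5 in some library had a smaller span.

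*Crabp2*, its paralog, carries retinoic acid to the receptors in the nucleus. It had 277 (endoderm), 1977 (mesoderm) and 4198 (epiblast) reads, with an RPKM of 7.39, 53.8 and 109.2. Epiblast was highest here, and endoderm again lowest. Epiblast was 14.8-fold (13.1 to 16.8) and mesoderm 7.28-fold (6.41 to 8.28) above endoderm. Epiblast was 2.03-fold (1.92 to 2.14) above mesoderm, which met the criteria by a narrow margin and no longer did so when the libraries were scaled to the same RPKM total. The 2 paralogs changed places between layers. *Crabp1* made up 82.4% of their summed RPKM in mesoderm and 20.2% in epiblast, and the sum was 305.9 in mesoderm, 136.9 in epiblast and 13.5 in endoderm. In endoderm the 2 genes were near each other, with *Crabp2* at 1.21 times *Crabp1* and an interval of 0.999 to 1.46. *Crabp2* lies on chromosome 3 from 87948666 to 87953376.

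*Fabp5*, a fatty acid binding protein that also carries retinoic acid to the receptor encoded by *Ppard*, had the order of *Crabp2*. Its RPKM was 38.5 (endoderm), 111.6 (mesoderm) and 243.4 (epiblast), and all 3 pairs met the criteria. *Ppard* had an RPKM of 6.42, 8.26 and 6.94, and no pair met them.

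**Figure D2:**
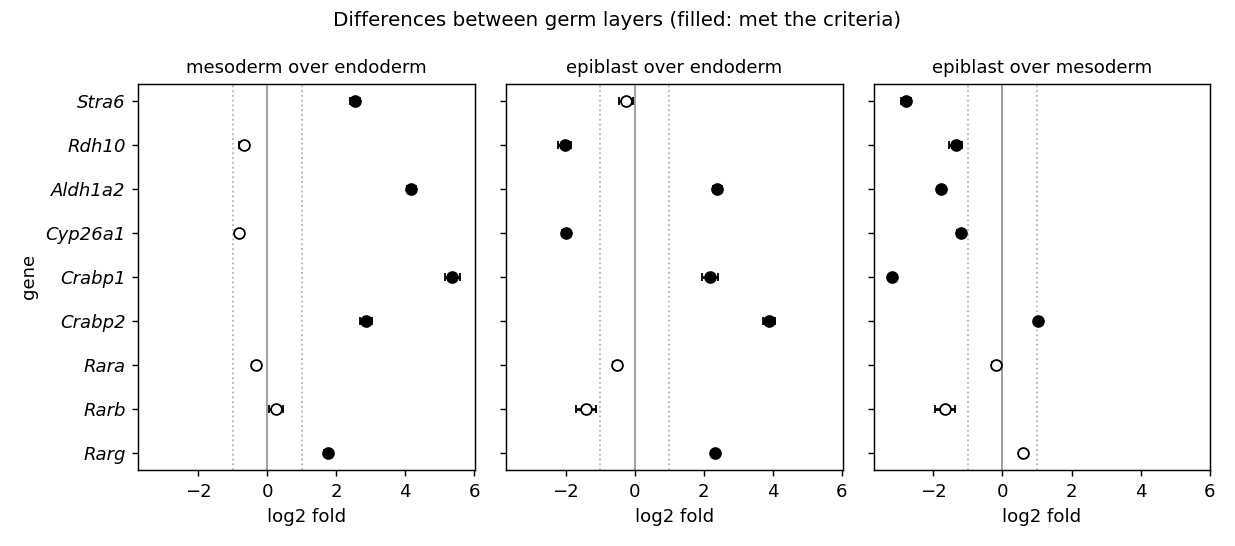
Log2 fold of the 9 genes in each pair of germ layers, the second layer over the first; filled points met the criteria, error bars are 95% counting intervals and dotted lines mark 2-fold. In mesoderm over endoderm the 5 filled points all lie to the right, between 1.75 and 5.36, and in epiblast over mesoderm 5 of the 6 filled points lie to the left.

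*Rara*, 1 of the 3 nuclear receptors of retinoic acid, differed least of the 9 genes. It had 1795 (endoderm), 1403 (mesoderm) and 1278 (epiblast) reads, with an RPKM of 12.7, 10.1 and 8.84. Its largest difference was 1.44-fold (1.34 to 1.55), between endoderm and epiblast, and no pair met the criteria. Of the genes above RPKM 5 in some library, 41.1% had a smaller span.

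*Rarb*, whose promoter is printed above and which is known to be induced by its own ligand, was the lowest of the 9 genes in each layer. It had 349 (endoderm), 408 (mesoderm) and 134 (epiblast) reads, with an RPKM of 3.004, 3.58 and 1.13. Endoderm and mesoderm were close to each other, at 1.19-fold (1.03 to 1.38), and epiblast was low. Endoderm was 2.67-fold (2.18 to 3.28) and mesoderm 3.18-fold (2.61 to 3.90) above epiblast. Neither met the criteria because RPKM stayed under 5, and both did with RPKM>1. An exon of *Rarb* overlaps *Top2b* on the other strand, and *Top2b* had an RPKM of 20.05, 41.0 and 20.4, highest in mesoderm as well. Its part in the reads of *Rarb* was not tested.

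*Rarb* and *Cyp26a1*, the 2 genes with the repeat at the start site, both had their lowest level in epiblast, as did *Rdh10*, *Stra6* and *Rara*. Of the 31 mouse genes whose window holds the repeat, 5 were found under the same symbol with reads. The other 3 were *Blvrb*, with an RPKM of 14.6 (endoderm), 6.23 (mesoderm) and 8.93 (epiblast), and *Prokr2* and *Tnfsf13b*, which stayed under RPKM 1. On GRCm38 the 3 receptor genes lie apart, *Rara* on chromosome 11 from 98927818 to 98974942, *Rarb* on chromosome 14 from 16430839 to 16819156 and *Rarg* on chromosome 15 from 102234938 to 102257517.

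*Rarg* had 1053 (endoderm), 3483 (mesoderm) and 5452 (epiblast) reads, with an RPKM of 8.67, 29.2 and 43.8. Epiblast was highest and endoderm lowest, as for *Crabp2*. Epiblast was 5.05-fold (4.73 to 5.40) and mesoderm 3.37-fold (3.15 to 3.62) above endoderm, and both met the criteria. The 1.497-fold (1.43 to 1.56) difference between mesoderm and epiblast did not. The summed RPKM of the 3 receptor genes was 24.4 (endoderm), 43.0 (mesoderm) and 53.7 (epiblast). *Rara* made up 52.2% of it in endoderm, 23.6% in mesoderm and 16.5% in epiblast, whereas *Rarg* made up 35.5%, 68.0% and 81.4%. *Rarb* gave 12.3%, 8.34% and 2.09%. The leading receptor was thus *Rara* in endoderm and *Rarg* in the other layers.

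Of the retinoid X receptors, the dimer partners, *Rxra* and *Rxrb* met the criteria in no pair, whereas *Rxrg* did in both pairs with epiblast. *Rxra* had an RPKM of 8.12, 12.9 and 10.2, and *Rxrb* had 14.1, 16.6 and 16.7. *Rxrg* had 20 (endoderm), 179 (mesoderm) and 555 (epiblast) reads. Epiblast exceeded endoderm 27.1-fold (17.4 to 44.7) and mesoderm 2.97-fold (2.502 to 3.53). With *Fabp5*, *Ppard* and the 3 retinoid X receptors taken as 1 list, 1 of 5 genes met the criteria between endoderm and mesoderm. In each of the other pairs 2 of 5 did. The shares of all genes were 11.9% (endoderm and mesoderm), 12.6% (endoderm and epiblast) and 5.04% (mesoderm and epiblast). The median log2 differences of the list were 0.66 for mesoderm minus endoderm, 0.32 for epiblast minus endoderm and 0.01 for epiblast minus mesoderm.

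**Figure D3:**
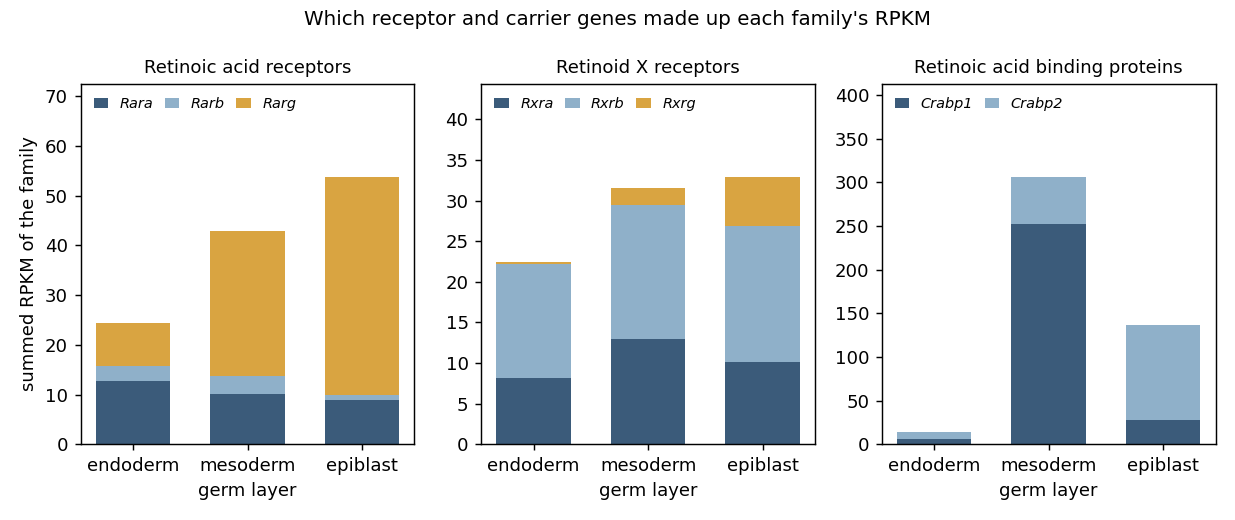
Summed RPKM of the retinoic acid receptors, the retinoid X receptors and the cellular retinoic acid binding proteins in each germ layer, 1 library each, split by gene. *Rarg* gives most of the receptor level in mesoderm and epiblast but not in endoderm, and *Crabp1* and *Crabp2* change places between mesoderm and epiblast.

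The coregulators that join these receptors on DNA did not differ by the criteria. Of 12 genes, among them the corepressor *Ncor1* and the coactivators *Ncoa1*, *Ncoa2* and *Ncoa3*, 10 were above RPKM 5 in some layer and 0 met the criteria in any pair. All genes met them at 11.9% (endoderm and mesoderm), 12.6% (endoderm and epiblast) and 5.04% (mesoderm and epiblast). Such shares leave few genes in a list of 12, and the count of 0 was not tested against them. *Rere*, a coactivator in retinoic acid signalling, had an RPKM of 39.0 (endoderm), 32.1 (mesoderm) and 29.7 (epiblast). The median log2 difference of the list was 0.07 for mesoderm minus endoderm, 0.05 for epiblast minus endoderm and -0.09 for epiblast minus mesoderm.

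Of 17 genes known to respond to retinoic acid in some tissue, 8 met the criteria between endoderm and mesoderm, 6 of them higher in mesoderm and 2 higher in endoderm. Among all genes 4.41% met them as higher in mesoderm and 7.44% as higher in endoderm. Between endoderm and epiblast 7 met them, 5 higher in epiblast and 2 higher in endoderm, against 4.58% and 8.02% of all genes. *Hoxb1*, a hindbrain gene, had 231 (endoderm), 5811 (mesoderm) and 3424 (epiblast) reads. *Hoxb2* had an RPKM of 0.442, 29.0 and 9.81. *Cdx1*, a regulator of posterior Hox genes, was highest in epiblast, with an RPKM of 3.06, 15.9 and 48.7. *Meis2*, a cofactor of Hox proteins, had an RPKM of 2.30, 25.8 and 22.4, and its paralog *Meis1* had 2.24, 20.2 and 1.54. *Tgm2*, a transglutaminase, was higher in endoderm, with 1404, 63 and 127 reads. Between mesoderm and epiblast 3 of the 17 met the criteria, against 5.04% of all genes. *Hoxb2* and *Meis1* were higher in mesoderm and *Cdx1* was higher in epiblast. The median log2 difference was 1.58 for mesoderm minus endoderm, 1.10 for epiblast minus endoderm and 0.000593 for epiblast minus mesoderm. *Stra8* had 1 read in endoderm, 2 in mesoderm and 6 in epiblast.

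**Figure D4:**
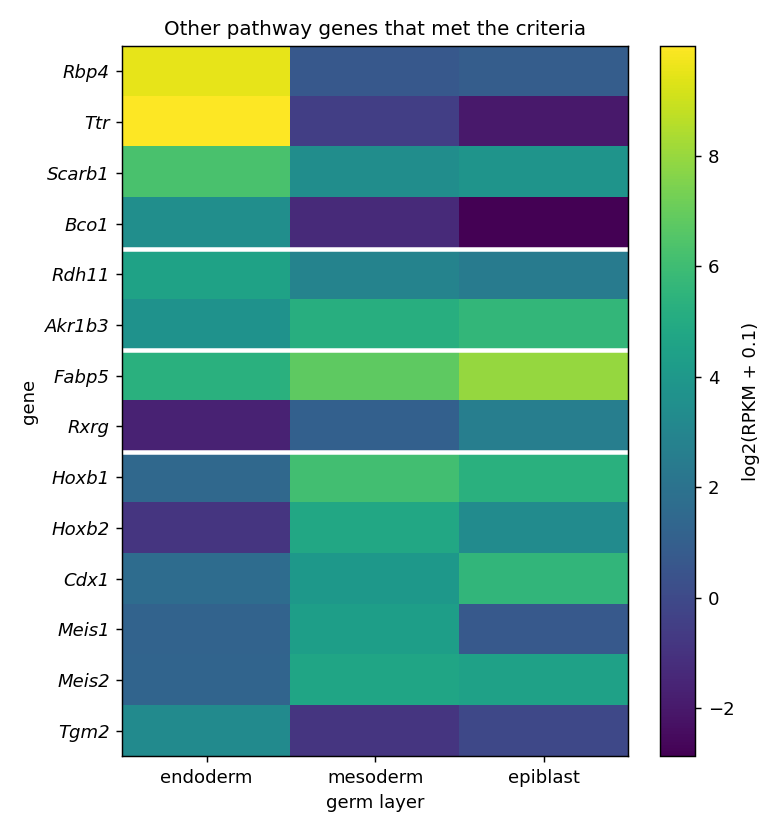
Heat map of log2(RPKM + 0.1) in the 3 germ layers, 1 library each, for 14 of the 17 other pathway genes that met the criteria in at least 1 pair, with white lines between the lists (retinol carriers, redox enzymes, ligand carriers and receptors, response genes). *Rbp4* and *Ttr* are bright in endoderm alone, and *Hoxb1*, *Hoxb2* and *Meis2* are darker in endoderm than in the other layers.

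In all, 67 other genes of the pathway were listed and 65 had reads in some library. Between endoderm and mesoderm 16 of the 65 with reads met the criteria, 8 in each direction, where 11.9% of all genes did. Between endoderm and epiblast 15 of 65 did, 7 higher in endoderm and 8 higher in epiblast, against 12.6% of all genes. Between mesoderm and epiblast 5 of 60 did, against 5.04% of all genes, which is a count near that share. The median log2 difference over the list was -0.09 for mesoderm minus endoderm, -0.16 for epiblast minus endoderm and -0.00144 for epiblast minus mesoderm.

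The layers carried their own markers. All 6 endoderm, 6 mesoderm and 6 epiblast markers were highest in their own layer. The mesoderm markers were in epiblast at 1.89% (*Kdr*) to 88.2% (*Tbx6*) of their mesoderm RPKM, with a median of 19.0%. Set beside these, *Aldh1a2* in epiblast was at 29.2% of its mesoderm RPKM, *Stra6* at 14.4% and *Crabp1* at 10.98%. In endoderm the mesoderm markers were at 0.451% to 9.75%, where *Aldh1a2* was at 5.54%, *Stra6* at 17.2% and *Crabp1* at 2.43%. The endoderm markers were in mesoderm at 0.0494% to 34.4% of their endoderm RPKM and in epiblast at 0.0150% to 5.86%, whereas *Cyp26a1* was at 57.4% and 25.2% and *Rdh10* at 62.4% and 24.5%. The epiblast markers were in mesoderm at 0.656% to 23.1% of their epiblast RPKM and in endoderm at 1.44% to 17.2%. Beside them, *Crabp2* was at 49.2% and 6.76% and *Rarg* at 66.8% and 19.8%. The part of cells carried over between layers in these levels was not tested.

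Lists for other cells gave the following. All 10 visceral endoderm markers were highest in endoderm, and their summed RPKM was 6601 (endoderm), 9.36 (mesoderm) and 7.29 (epiblast). Of 7 node and axial mesendoderm genes 6 were highest in endoderm, with sums of 222.8, 83.0 and 249.6, the last mostly *T*. Of 7 allantois and extra-embryonic mesoderm genes 6 were highest in mesoderm, with sums of 10.96, 311.2 and 42.9, the highest from *Hand1*. The maternal decidua list summed to 25.7, 41.1 and 2.80, mostly from *Bmp2* in endoderm and from *Hand2* and *Bmp2* in mesoderm. Embryonic tissue also expresses both genes. Of the other members, *Pgr* had 96, 225 and 358 reads, *Dcn* 27, 8 and 41 and *Col6a3* 17, 16 and 32. All of these were highest in epiblast. *Hoxa10*, with 2, 73 and 16 reads, and *Hoxa11*, with 0, 26 and 0, were highest in mesoderm. The decidual hormones *Prl8a2* and *Prl3c1* had no row in any library, so their reads were set to 0. The extra-embryonic ectoderm and trophoblast list summed to 28.5, 229.3 and 35.9, mostly *Hand1* in mesoderm and epiblast. Its members *Elf5*, with 10, 12 and 31 reads, and *Ascl2*, with 18, 74 and 112, were highest in epiblast. *Gcm1* had 15, 3 and 0 reads and was highest in endoderm. In endoderm the sum came mostly from *Plac1*, with an RPKM of 19.9, 6.25 and 0.569, and *Esx1*, with 478, 4 and 9 reads. Both met the criteria as higher in endoderm. *Tpbpa*, *Prl2c2* and *Prl3d1* had no row in any library, so their reads were set to 0. The primitive erythroid list summed to 3.65, 5.92 and 1.41, where *Hba-x* and *Hbb-y* had no row in any library and were set to 0. The globin gene *Hbb-bh1* had 37 reads in mesoderm and 0 in the other layers, and the heme enzyme gene *Alas2* had 21, 120 and 43 reads and the erythroid factor gene *Klf1* 8, 29 and 16, so that these 3 were highest in mesoderm, as were *Aldh1a2*, *Stra6* and *Crabp1*. *Gata1*, another erythroid factor gene, had 246, 184 and 51 reads and was highest in endoderm. The part of these cells in the levels of the 9 genes was not tested.

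Over the 9135 genes above RPKM 5 in some library, the 2 genes nearest to each member in level and order were found from the sum of the absolute differences in log2(RPKM + 0.1) over the 3 libraries. For *Aldh1a2* they were *Snai1* (0.63) and *Lef1* (0.78), and *Snai1* had an RPKM of 5.27 (endoderm), 67.3 (mesoderm) and 24.9 (epiblast). For *Crabp1* the nearest was *Aldh1a2* itself (1.68), followed by *Lef1* (2.12). For *Stra6* they were *9430020K01Rik* (0.59) and *Apcdd1* (0.67), for *Cyp26a1* *P4ha1* (0.38) and *Igf2r* (0.52), and for *Rdh10* *Pwwp2b* (0.08) and *Gcnt1* (0.49). For *Crabp2* they were *Prps1* (1.21) and *Nlrp1a* (1.79), and for *Rarg* *5730528L13Rik* (0.42) and *Sdc1* (0.44). With 3 libraries such likeness is a description only.

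The exact test counts reads alone, so the 17 differences rest mainly on the RPKM and fold criteria. Where spread between embryo pools was assumed in edgeR's exact test (a coefficient of variation of 0.4), 3 of the 17 were kept. These were *Aldh1a2* (FDR 0.000336) and *Crabp1* (FDR 5.90e-06) between endoderm and mesoderm, and *Crabp2* (FDR 0.000965) between endoderm and epiblast.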

How the data were processed

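RNA from 3 germ layers was sequenced (paired ends, Illumina HiSeq), 1 library per layer. The authors deposited a count of uniquely mapped reads per gene without normalization, the gene length, the percent of that length covered and the RPKM. Dividing reads by length and by all reads on genes gave back this RPKM. The processing notes name TopHat, mm10 and mm9. The aligner, annotation and use of strand in the gene tables are not given in the sources used here.

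RPKM was used as deposited. FDR was by Benjamini-Hochberg over all genes read in at least 1 library of a pair, on two-sided Audic and Claverie p-values. With 1 library per layer, the quasi-likelihood fit of edgeR had no residual spread and could not be fitted, and an exact test of edgeR at an assumed biological variation (coefficient 0.2 or 0.4) was an alternative. Genes missing from 1 table were set to 0 reads there (up to 3 allowed). Fold intervals are 95% Clopper-Pearson intervals and read intervals are exact Poisson, both for counting error only. Medians used log2(RPKM + 0.1). The tests were tested on simulated data. The members and lists were chosen with earlier results of these data known. Named genes were the 9 members, the pathway genes that met the criteria, paralogs of the members, the 2 nearest genes of each member that met the criteria, and markers. Some listed genes enter the counts and medians but are not reported here by name. Other genes were named after their values were seen, such as *Top2b*, *Dhrs3*, *Rere*, *Stra8* and the genes that share the promoter repeat or lie beside a member. Positions are from GENCODE M21 (GRCm38). Of the pathway genes, 2 were matched through older symbols and 2 had no row. Other alternatives were another RPKM minimum or fold, RPKM+1, and 4 scalings. Software was edgeR 4.0.16 in R 4.3.3, and Python 3.11.15 with SciPy 1.17.1, numpy 2.4.6, matplotlib 3.10.9 and pandas 2.3.3.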

Additional observations from a re-analysis of the deposited data

How the results depend on the processing

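No paired analysis was possible because each germ layer has 1 library, and for the same reason no library could be left out. Median of ratios and TMM moved all differences from endoderm by about -0.11 on the log2 scale, and the same upper quartile moved epiblast minus endoderm by 0.13. Under the 4 scalings and RPKM+1, 134 of 135 log2 folds of the 9 genes kept their direction and their side of the criteria. The exception was *Crabp2* between mesoderm and epiblast, at 0.97 with the same RPKM total. With edgeR's exact test at a coefficient of 0.4, 2 of the 9 genes met the criteria for mesoderm against endoderm, 1 for epiblast against endoderm and 0 for mesoderm against epiblast, where the lowest FDR were 0.0183 (*Crabp1*) and 0.0494 (*Stra6*). With a coefficient of 0.2, 3 did between mesoderm and epiblast (*Aldh1a2*, *Stra6* and *Crabp1*), and with Fold Change>4, 2 did (*Stra6* and *Crabp1*). The 67 other pathway genes gave 8, 8 and 0 in these pairs at 0.4, and 1 between mesoderm and epiblast at 0.2 or with Fold Change>4 (*Meis1*). Without an RPKM minimum they gave 31, 29 and 12, and with RPKM>1, 23 between endoderm and epiblast. All other counts stayed within 1.5 times the reported count. Each member had at least 134 reads in each library, and depth limits the paralogs with few reads.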

Other observations

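*Crabp1*, *Stra6* and *Aldh1a2*, the members that were highest in mesoderm with RPKM above 5 there, all lie on chromosome 9, *Crabp1* from 54764748 to 54773110. *Crabp1* and *Stra6* are 3.29 Mb apart, and *Stra6* and *Aldh1a2* 13.1 Mb. The genes beside them did not share their levels. *Wdr61* and *Ireb2*, on either side of *Crabp1*, were even over the layers, *Wdr61* at RPKM 48.6, 61.7 and 65.2 and *Ireb2* at 26.9, 33.6 and 30.7 (endoderm, mesoderm, epiblast). *Cyp11a1* and *Islr*, beside *Stra6*, were under RPKM 1 in each layer. Beside *Aldh1a2*, *Aqp9* had an RPKM under 1 in each layer and *Cgnl1* had 20.3, 22.1 and 20.3. Of the 480 protein-coding genes of chromosome 9 above RPKM 5 in some library, 30.8% were highest in mesoderm, as were 30.4% of the 8240 such genes of all chromosomes.

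*Nes*, an intermediate filament gene of neural progenitors that lies 17.7 kb from *Crabp2* on chromosome 3, had an RPKM of 1.95 (endoderm), 12.9 (mesoderm) and 17.2 (epiblast), in the same order as *Crabp2*. The gene on the other side, *Isg20l2*, had 24.4, 41.6 and 48.4. *Rpl7*, 1.11 kb from *Rdh10* on chromosome 1, had 1006, 1249 and 1440, the reverse of the order of *Rdh10*. Among the 9135 genes above RPKM 5 in some library, the order of *Aldh1a2* and *Crabp1* (mesoderm, epiblast, endoderm) was held by 21.8%, that of *Stra6* and *Rarb* (mesoderm, endoderm, epiblast) by 8.58%, that of *Rdh10*, *Cyp26a1* and *Rara* (endoderm, mesoderm, epiblast) by 22.1%, and that of *Crabp2* and *Rarg* (epiblast, mesoderm, endoderm) by 26.2%.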
